A study of Mus musculus with 12 samples.

Results

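The response of mouse embryonic stem (ES) cells to removal of leukaemia inhibitory factor (LIF) was compared between wild type cells and cells deleted for the class I histone deacetylase gene Hdac1 and for 1 copy of Hdac2. All 12 arrays of the series entered the comparison, 3 in each of 4 groups defined by the sample titles. The wild type groups were E14 ES cells (129/Ola, male) labelled day 0, either with LIF or after 4 days of culture without it. The deleted groups were labelled HDAC1-/-; HDAC2-/wt and day 4, again with LIF or after 4 days without it, so they had lost both alleles of Hdac1 and kept 1 wild type allele of Hdac2. Deletion was induced by 4-hydroxytamoxifen (OHT), which activates a CreER recombinase, for 16 h at 1 uM. The agent label OHT stood on all 12 samples, the wild type ones included, and the design text names CreER for the deleted cells. Genotype and day divided the arrays in the same way and cannot be told apart. The cells grew without feeders on gelatin in serum medium. The labels give no clone number. They leave unsaid whether a group's 3 arrays stem from different cultures, and a p-value here covers the spread between arrays, which may be technical.

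LIF acts through a receptor formed by Lifr and Il6st (gp130), which activates JAK kinases and the transcription factor STAT3. STAT3 induces its own feedback inhibitor Socs3 and, in mouse ES cells, factors of the naive state such as Klf4, Tfcp2l1 and Gbx2. Without LIF, serum-grown ES cells lose the naive factors and gain genes of the later epiblast. HDAC1 and HDAC2 remove acetyl groups from histones as subunits of the Sin3, NuRD, CoREST and MiDAC complexes.

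The interaction was the LIF withdrawal difference (without LIF minus with LIF) in deleted cells minus that in wild type cells, in log2 units. It is the same number as the deletion difference without LIF minus that with LIF. A response is called blunted where it was smaller in deleted cells, exaggerated where it was larger and reversed where it had opposite signs and passed in both genotypes. A positive interaction is therefore a weaker fall, a stronger rise, or a fall in wild type cells with a rise in deleted cells.

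Arrays detected 14872 to 18907 of 45281 probes, and pairs of arrays correlated at 0.974 to 0.994 in a group and at 0.933 to 0.981 across groups. The median SD of a gene within a group was 0.17 in wild type cells with LIF, 0.15 without it, 0.11 in deleted cells with LIF and 0.16 without it. The ES cell genes Pou5f1, Sox2, Nanog, Sall4, Utf1 and Zfp42 were detected on 12 of 12 arrays. Hdac1 had no named probe. For Hdac2 (chromosome 10) the fit gave an interaction of 0.11 with a 95% interval of -0.25 to 0.47 (limma adjusted p = 0.945). An interaction does not measure the loss of a copy, and the genotype is taken here from the labels. The names of the 12 columns in the non-normalized table and the sample records disagreed on culture for all 12 and on genotype for 0. The culture labels here follow the sample records, under which Socs3 read 10.56 to 11.18 on the 6 arrays with LIF and 7.70 to 8.61 on the 6 without it. Under the other naming both LIF responses and the interaction would change sign. A response called blunted or reversed would still be so, since both arms would turn.

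Fewer genes passed the test of LIF withdrawal in deleted cells than in wild type cells. In wild type cells 1054 of 9527 genes rose (11.1%) and 956 fell (10%), at a limma adjusted p under 0.05. In deleted cells 479 rose (5.03%) and 548 fell (5.75%). In such bulk samples fewer cells of a type and less RNA per cell cannot be told apart. Both arms had a median standard error (SE) of 0.13, because all 4 groups shared 1 estimate of the spread. Changes of at least 2-fold numbered 261 in wild type cells and 149 in deleted cells. The wild type count was the higher one in 24 of 24 alternative settings, by 1.5 to 3.24 times against 1.96 here.

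The 2 responses ran mostly in the same direction. They shared no arrays, and across the 9527 genes, which are not independent replicates, Pearson's r was 0.797 and Spearman's rho 0.698. Of the 790 genes called in both genotypes, 788 had the same sign. They made up 39.3% of the wild type calls and 76.9% of the deleted calls. The SD of the responses over all genes was 0.40 in wild type cells and 0.33 in deleted cells, and the response of 60.6% of genes (5774) was smaller in size in deleted cells. Of genes called in wild type cells 86.2% were smaller in deleted cells, but choosing genes by one arm favours that arm. Of genes called in deleted cells, where the choice favours the other side, 50.9% were larger in wild type cells.

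Only single genes passed the test of the difference itself. The interaction passed for 5 of 9527 genes (0.0525%), 2 positive and 3 negative. At an unadjusted p under 0.05 there were 722 genes (7.58%), 278 positive and 444 negative. Of these 722, 550 had the smaller response in deleted cells and 172 the larger one. Both responses had the same sign and the smaller size in deleted cells in 318, the same sign and the larger size in 46, and opposite signs in 358. The median 95% interval of an interaction reached 0.41 to either side, so smaller differences could not be seen in most genes. That interval is not adjusted for the number of genes tested, and the adjusted threshold asked for more. Interactions of 0.87 (Tfcp2l1) and -1.03 (Kif1a) missed it, so many differences well above 0.41 could not be called either. By class, 3 of the 5 genes were blunted (Laptm5, Car14 and Ccn2), 2 were reversed (Tgm1 and Npw) and 0 were exaggerated. These classes describe the arrays that chose the genes.

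**Figure D1:**
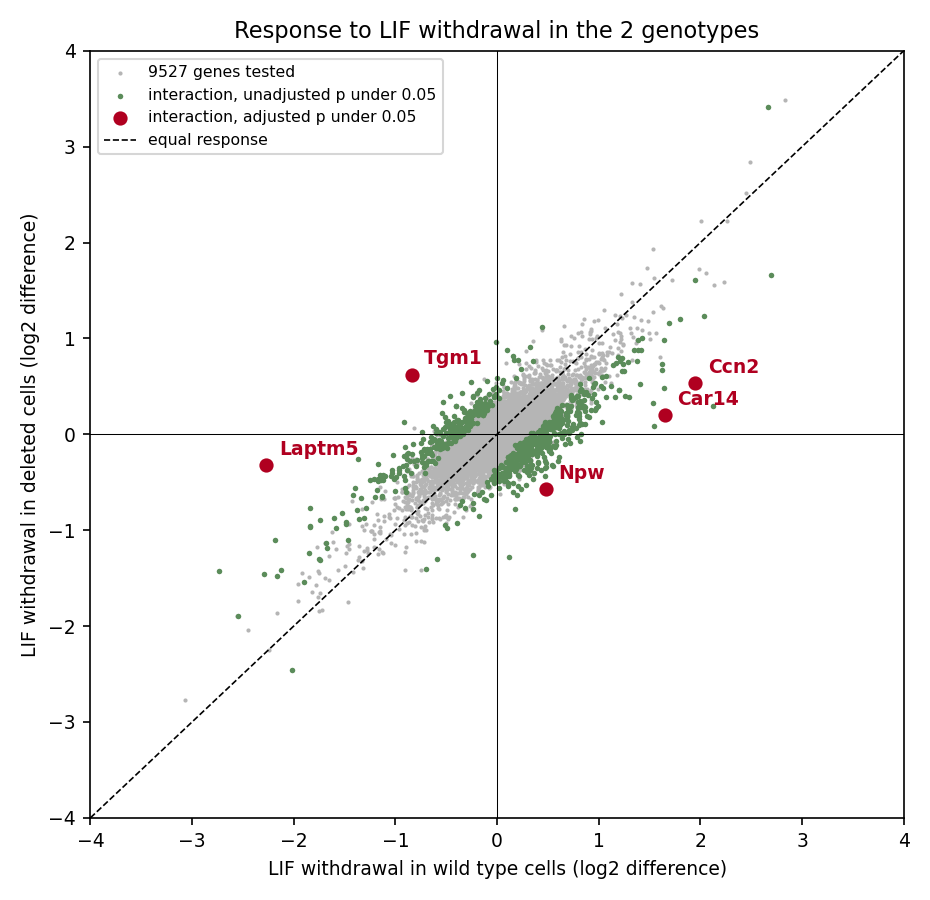
The response to LIF withdrawal of 9527 genes in wild type cells (x axis) and deleted cells (y axis), both as log2 differences, with a dashed line where the 2 are equal. Red points are the 5 genes past the interaction test at an adjusted p under 0.05, green points the others with an unadjusted p under 0.05. Of all 722 at that p, 550 have the smaller response in deleted cells.

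Laptm5 lost almost all of its LIF dependence. It encodes a lysosomal membrane protein best known from blood cells, on chromosome 4. Its log2 intensity in wild type cells was 11.18, 11.15 and 11.23 with LIF and 9.17, 8.78 and 8.81 without it. In deleted cells it was 10.73, 10.80 and 10.77 with LIF and 10.57, 10.26 and 10.51 without it. The wild type arrays without LIF stood below all other arrays, while the deleted arrays without LIF came close to those with LIF. It fell 4.81-fold in wild type cells (-2.27 ± 0.12, SE), and differed by -0.32 ± 0.12 in deleted cells, which did not pass (adjusted p = 0.115). The interaction was 1.94 ± 0.17 with a 95% interval of 1.58 to 2.31 (limma adjusted p = 0.000217).

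Because Laptm5 also marks blood, the other markers of blood and endothelium were read beside it. Of 15 such genes 13 had a probe and 6 were measured. Besides Laptm5, the measured ones were Tek and Pecam1, detected on 12 of 12 arrays, Lmo2 on 9, Hba-a1 on 7 and Kdr on 5. Ptprc, which defines leukocytes, was detected on 1 of 12 arrays, Tal1 and Gata1 on 0 and Cd34 on 1. The summed intensity of the 5 measured markers other than Laptm5 was 729 to 884 in wild type cells with LIF and 518 to 574 without it. In deleted cells it was 844 to 949 with LIF and 567 to 718 without it. The sum of these markers stood lower without LIF in both genotypes, and its part in the Laptm5 result was not tested. The highest log2 reading among the 5 was that of Pecam1 (8.71), which is also on the naive pluripotency list below. The sum is therefore not a measure of blood or endothelial cells alone.

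Car14 showed the opposite case, a rise that was nearly absent in deleted cells. It encodes a membrane-bound carbonic anhydrase, on chromosome 3. Wild type arrays read 6.72, 6.74 and 6.65 with LIF and 8.35, 8.25 and 8.45 without it. Deleted arrays read 6.40, 6.52 and 6.35 with LIF and 6.76, 6.64 and 6.47 without it. The 3 wild type arrays without LIF stood above all other arrays. Car14 rose 3.13-fold in wild type cells (1.65), against 0.20 in deleted cells (adjusted p = 0.271). The interaction was -1.44 ± 0.15 with an interval of -1.77 to -1.12 (limma adjusted p = 0.000796). Deleted values lay at or near the detection floor of 6.44 to 6.61, with detection on 1 of 3 arrays with LIF and 2 of 3 without it, so the log2 differences there are compressed.

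Ccn2 rose in both genotypes and by less in deleted cells. It encodes a secreted matrix-associated protein, also called CTGF, and is a target of YAP, on chromosome 10. Wild type arrays read 9.11, 9.14 and 9.64 with LIF and 11.06, 11.36 and 11.31 without it, a rise of 1.95 ± 0.16. Deleted arrays read 9.63, 9.97 and 9.98 with LIF and 10.18, 10.51 and 10.50 without it, a rise of 0.53 (adjusted p = 0.0478). Deleted arrays started at or above most wild type ones and ended below all 3. The interaction was -1.41 ± 0.23, interval -1.90 to -0.92 (limma adjusted p = 0.0452). A second probe of Ccn2 gave -1.07 and did not pass over all probes (adjusted p = 0.541).

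Ccn2 is also made by fibroblasts. Of 16 fibroblast markers 8 were measured. Col5a1, Thy1, Vim, Fbln2 and Loxl1 were detected on 12 of 12 arrays, and Col1a2, Dcn, Lum and S100a4 on 0. The summed intensity of the 8 was 1600 to 1910 in wild type cells with LIF, 1710 to 1950 without it, 2550 to 2640 in deleted cells with LIF and 2020 to 2460 without it. Their sum was therefore highest in deleted cells with LIF, and their part in the Ccn2 result was not tested. The other 17 measured genes of matrix remodelling and YAP did not pass the interaction, and the list had a median of -0.08 against -0.02 for all genes.

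Tgm1 changed in opposite directions. It encodes a transglutaminase that crosslinks proteins of the outer epidermis, on chromosome 14. In wild type cells it read 8.45, 8.24 and 8.31 with LIF and 7.63, 7.43 and 7.41 without it, a fall (-0.84, adjusted p = 0.0024). In deleted cells it read 8.57, 8.44 and 8.91 with LIF and 8.96, 9.18 and 9.63 without it, a rise (0.62, adjusted p = 0.0268). The 2 genotypes overlapped with LIF and were fully separate without it. The interaction was 1.46 ± 0.23, interval 0.96 to 1.96 (limma adjusted p = 0.0452).

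Npw was reversed in the other direction. It encodes neuropeptide W, a ligand of G protein-coupled receptors, on chromosome 17. It read 6.24, 6.64 and 6.34 in wild type cells with LIF and 6.91, 6.88 and 6.87 without it, a rise of 0.48 (adjusted p = 0.00922). The deleted arrays read 7.34, 7.55 and 7.34 with LIF and 6.89, 6.79 and 6.85 without it, a fall (-0.57, adjusted p = 0.00573). The genotypes were apart with LIF and overlapped without it. The interaction was -1.05 ± 0.16, interval -1.39 to -0.70 (limma adjusted p = 0.0452). Npw was detected on 1 of 3 wild type arrays with LIF, so its rise there starts near the floor. The value depends on the background treatment: it was -1.86 with the neqc-type correction and -0.76 without normexp, and passed in both.

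**Figure D2:**
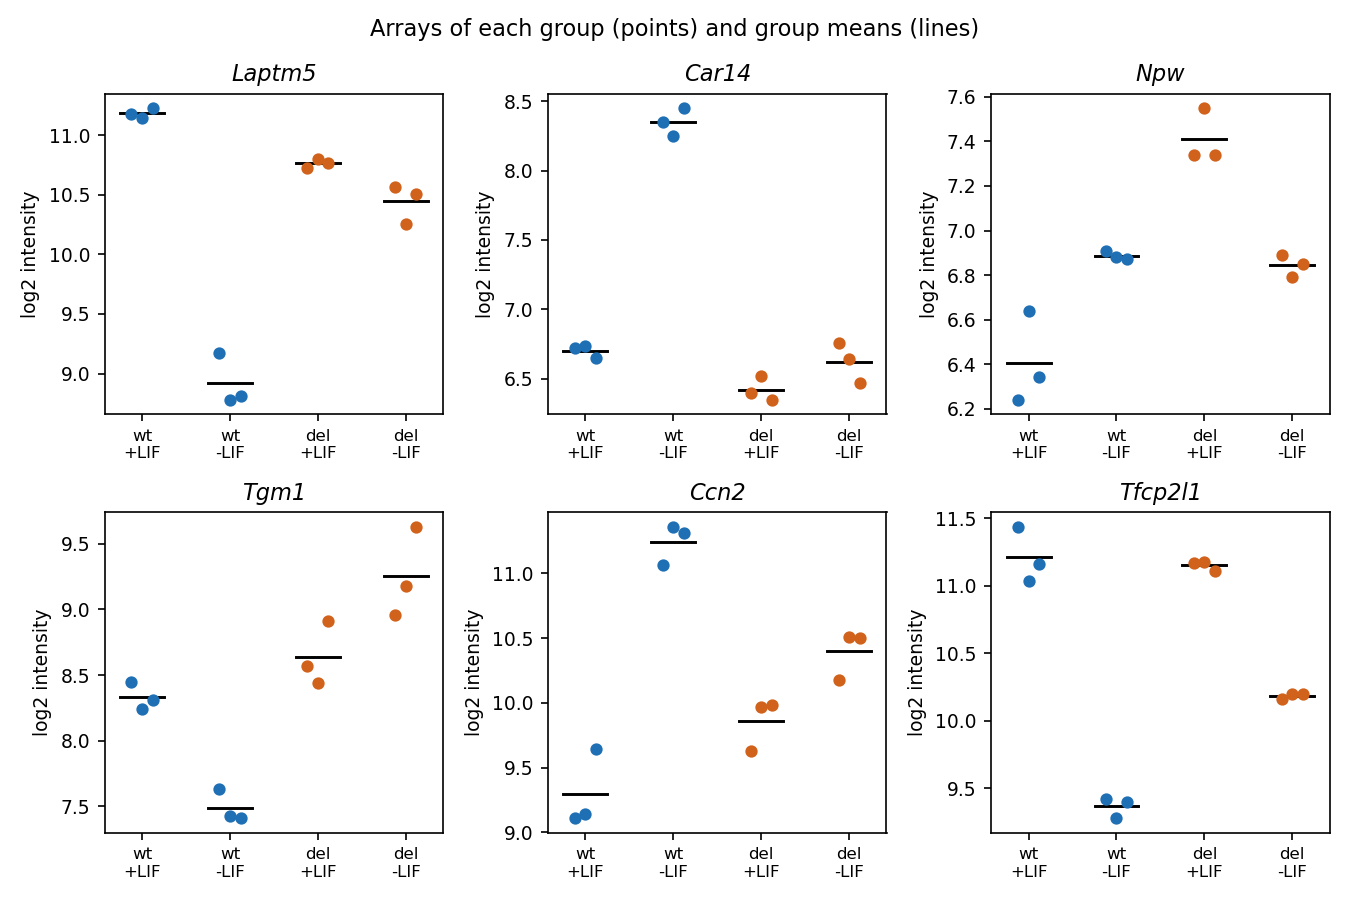
Log2 intensity on each array (points) and group mean (lines) for the 5 genes past the interaction test and for Tfcp2l1, in wild type (wt) and deleted (del) cells with (+) and without (-) LIF. The y axes differ and do not start at 0. The wild type step between cultures is large for Laptm5, Car14, Ccn2 and Tfcp2l1, and smaller with the same sign in deleted cells. For Tgm1 and Npw the step has the other sign in deleted cells.

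The result for Laptm5 passed in 23 of 23 alternative settings and that for Car14 in 21 of 22, the exception being median scaling of the non-normalized intensities (adjusted p = 0.448). The calls of Tgm1, Ccn2 and Npw were less stable, with an adjusted p under 0.05 in 12 of 23, 10 of 23 and 10 of 22. Those counts include the setting with the threshold at 0.01. There each of these genes kept a limma adjusted p of 0.0452 and did not pass. In the 12 fits that left out 1 array each, Laptm5 and Car14 passed in 12, Tgm1 in 3, and Ccn2 and Npw in 2. Tgm1 passed without deleted array 3 with LIF, wild type array 1 without LIF or deleted array 1 without LIF, Ccn2 without wild type array 3 with LIF or wild type array 1 without LIF, and Npw without wild type array 2 with LIF or wild type array 1 without LIF.

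The sequences upstream of the leading genes were searched for the palindromic STAT-type motif TTCNNNGAA, which reads the same on both strands. The windows run from 250 bases before to 50 bases after an annotated start, 5′ to 3′ on the gene's strand, from RefSeq on GRCm38.p6, with motif matches in capitals. Of 32851 such promoters 8.3% held the motif. Laptm5 and Car14 are printed as the leading gene of each direction, Socs3 as the LIF feedback gene that fell in both genotypes, and Tgm1, chosen after its values and motif were seen, as the gene that reversed.
Laptm5: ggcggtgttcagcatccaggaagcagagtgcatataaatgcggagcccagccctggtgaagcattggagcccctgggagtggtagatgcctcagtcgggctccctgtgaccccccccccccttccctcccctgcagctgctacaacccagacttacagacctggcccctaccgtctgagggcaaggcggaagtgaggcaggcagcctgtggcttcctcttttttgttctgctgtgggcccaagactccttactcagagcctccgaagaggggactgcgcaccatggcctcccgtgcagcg
Car14: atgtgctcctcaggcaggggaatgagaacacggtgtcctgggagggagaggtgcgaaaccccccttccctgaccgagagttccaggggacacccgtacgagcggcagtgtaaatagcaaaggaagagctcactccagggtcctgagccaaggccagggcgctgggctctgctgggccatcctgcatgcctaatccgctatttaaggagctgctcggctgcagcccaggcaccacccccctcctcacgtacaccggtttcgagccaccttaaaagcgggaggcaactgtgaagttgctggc
Socs3: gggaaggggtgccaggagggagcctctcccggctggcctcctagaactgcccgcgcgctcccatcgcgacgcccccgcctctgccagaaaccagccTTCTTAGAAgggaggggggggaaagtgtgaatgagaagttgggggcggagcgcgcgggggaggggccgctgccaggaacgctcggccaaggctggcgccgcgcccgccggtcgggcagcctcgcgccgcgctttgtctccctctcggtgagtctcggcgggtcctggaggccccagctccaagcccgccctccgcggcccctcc
Tgm1: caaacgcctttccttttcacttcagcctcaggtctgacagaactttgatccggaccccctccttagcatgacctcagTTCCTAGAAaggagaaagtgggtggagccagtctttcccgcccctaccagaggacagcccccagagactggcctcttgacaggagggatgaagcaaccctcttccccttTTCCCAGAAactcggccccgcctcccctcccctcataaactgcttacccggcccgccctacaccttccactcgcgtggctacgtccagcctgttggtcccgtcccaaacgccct
The Laptm5 window lies at chr4:130913066-130913365 on the plus strand and the Car14 window at chr3:95904636-95904935 on the minus strand, and neither held these letters. The Socs3 window, chr11:117969317-117969616 on the minus strand, held 1 match, 154 bases upstream of the start. The Tgm1 window, chr14:55713443-55713742 on the minus strand, held 2 matches, 173 and 64 bases upstream, and a second annotated Tgm1 window held 0. Of the 30 windows of 19 named genes, 5 held the motif, 1 each for Socs3, Tgm1, Esrrb, Otx2 and Ifitm3. Binding of STAT3 was not measured, and a match of letters is not a bound site. Windows were matched by gene symbol, and Npw, Ccn2 and Hdac1 were not matched.

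On the LIF and STAT3 response list, which also holds receptor and pathway genes, most had a smaller response in deleted cells. They were 16 of 19, against 60.6% of all genes and 86.2% of the genes called in wild type cells. Most of the 19 were called in wild type cells, so the share is not shown to be particular to this list. Each difference alone missed the adjusted threshold in the fit used here. Of 22 genes on the list 19 were measured, and 10 fell and 2 rose in wild type cells, against 6 and 1 in deleted cells. Shares over all 9527 genes, for this and every list below, were 11.1% rising and 10% falling in wild type cells. In deleted cells they were 5.03% and 5.75%, and 4387 interactions were positive and 5140 negative. None of the 19 genes passed the interaction. At an unadjusted p under 0.05, which 7.58% of all genes reached in either direction, 6 were positive and 0 negative, and 16 of 19 interactions were positive. The median response was -0.59 in wild type cells and -0.13 in deleted cells, with a median interaction of 0.39 against -0.02 for all genes. Without each array in turn the median interaction stayed between 0.19 and 0.43 and the positive count between 5 and 8, with 0 negative, and the lowest median came without deleted array 3 without LIF.

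The feedback inhibitor Socs3 had an interaction below the list's median. It read 10.93, 11.01 and 10.56 in wild type cells with LIF and 7.83, 7.70 and 7.78 without it. Deleted cells gave 10.95, 11.18 and 10.96 with LIF and 8.02, 8.13 and 8.61 without it. Socs3 fell by 3.07 in wild type cells and by 2.77 in deleted cells on the log2 scale, and the interaction was 0.29, interval -0.18 to 0.76 (limma adjusted p = 0.847). The interval reaches 0.76 and does not show equal responses.

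Among transcription factors downstream of LIF, Tfcp2l1 came closest to the threshold. Its arrays read 11.44, 11.04 and 11.16 in wild type cells with LIF and 9.42, 9.28 and 9.40 without it. In deleted cells they read 11.17, 11.18 and 11.11 with LIF and 10.16, 10.20 and 10.20 without it. The genotypes overlapped with LIF and were separate without it. Tfcp2l1 fell by 1.84 in wild type and by 0.97 in deleted cells, and the interaction was 0.87 ± 0.16 (limma adjusted p = 0.0664). It passed in 4 of 23 alternative settings.

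Gbx2, a homeobox factor of the naive state, fell by 2.74 in wild type cells and by 1.43 in deleted cells, with an interaction of 1.31 (adjusted p = 0.525). Its wild type arrays with LIF spread from 8.28 to 10.21, which overlapped the deleted range of 7.98 to 8.66. Klf5, a Krüppel-like factor, fell by 1.21 in wild type cells and stood at -0.47 in deleted cells (adjusted p = 0.156), with an interaction of 0.73. Bcl3, a co-regulator of NF-kB, fell by 1.18 and by 0.58, and was detected on 1 of 3 wild type arrays without LIF. Stat3 fell by 0.62 in wild type cells and stood at -0.13 in deleted cells, with further probes at interactions of 0.71 and 0.11, so its probes disagreed. Klf4 fell by 2.45 and by 2.04, with an interaction of 0.40 (adjusted p = 0.85).

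Fos, an immediate early gene, differed in sign. It read 7.30, 6.90 and 7.19 in wild type cells with LIF and 6.67, 6.69 and 6.63 without it, a fall. Among deleted arrays it was at 7.30, 7.31 and 7.56 with LIF and 7.55, 7.70 and 8.12 without it, which did not pass (0.40, adjusted p = 0.112). The interaction of Fos was 0.86 (adjusted p = 0.246). Among 14 immediate early and ERK feedback genes it was the only one with an unadjusted p under 0.05, and the list's median was 0.05.

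The naive pluripotency list was read next, since it shares Tfcp2l1, Klf4 and Klf5 with the list above. Of 21 measured genes 16 fell in wild type cells and 14 in deleted cells, and 0 rose in either. In 17 of 21 the response was smaller in size in deleted cells, against 5774 of 9527 over all genes (60.6%). Among all genes called in wild type cells, as 16 of these 21 were, that share was 86.2%. The median response was -1.32 in wild type cells and -0.96 in deleted cells, and the median interaction was 0.37. At an unadjusted p under 0.05, 8 interactions were positive and 0 negative, against 278 and 444 of 9527 over all genes. On the list 0 passed after adjustment. Without each array in turn 5 to 10 were positive and 0 negative, with medians of 0.26 to 0.62. The highest median came without deleted array 1 without LIF and the lowest count without wild type array 1 without LIF.

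Tcl1, a co-activator of AKT kinase, fell by 2.16 in wild type cells and by 1.48 in deleted cells (interaction 0.68, adjusted p = 0.154), with a second probe at 0.78. Nr5a2, a nuclear receptor, read 9.09, 8.76 and 8.91 in wild type cells with LIF and 7.03, 7.35 and 6.84 without it. In deleted cells it read 7.95, 8.18 and 7.98 with LIF and 6.95, 7.18 and 7.12 without it. For Nr5a2 the genotypes were apart with LIF and overlapped without it, the reverse of Tfcp2l1, although both interactions were positive (0.89 and 0.87). Esrrb, an orphan nuclear receptor, fell by 2.55 and by 1.89 (interaction 0.67, adjusted p = 0.496). Deleted array 3 without LIF, at 11.00, was the highest of the 6 without LIF. Tbx3, a T-box factor, gave 0.61 with further probes at 0.44 and 0.28, and the junction protein gene Jam2 gave 0.70 with further probes from 0.09 to 0.73.

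The core factors Nanog, Pou5f1 and Sox2 had interactions of both signs. Sox2 fell by 1.05 in wild type and by 0.87 in deleted cells (interaction 0.19, interval -0.36 to 0.73). Nanog was at -0.72 in wild type cells and fell by 0.88 in deleted cells (interaction -0.16, interval -0.96 to 0.64). Its deleted arrays without LIF spread from 10.15 to 11.43. Pou5f1, encoding Oct4, was at -0.36 in wild type cells, which missed the threshold (adjusted p = 0.0502), and fell by 0.74 in deleted cells. Its interaction was -0.38 (adjusted p = 0.648). Of 10 core genes, 5 interactions were positive and 5 negative, with a median of 0.08.

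**Figure D3:**
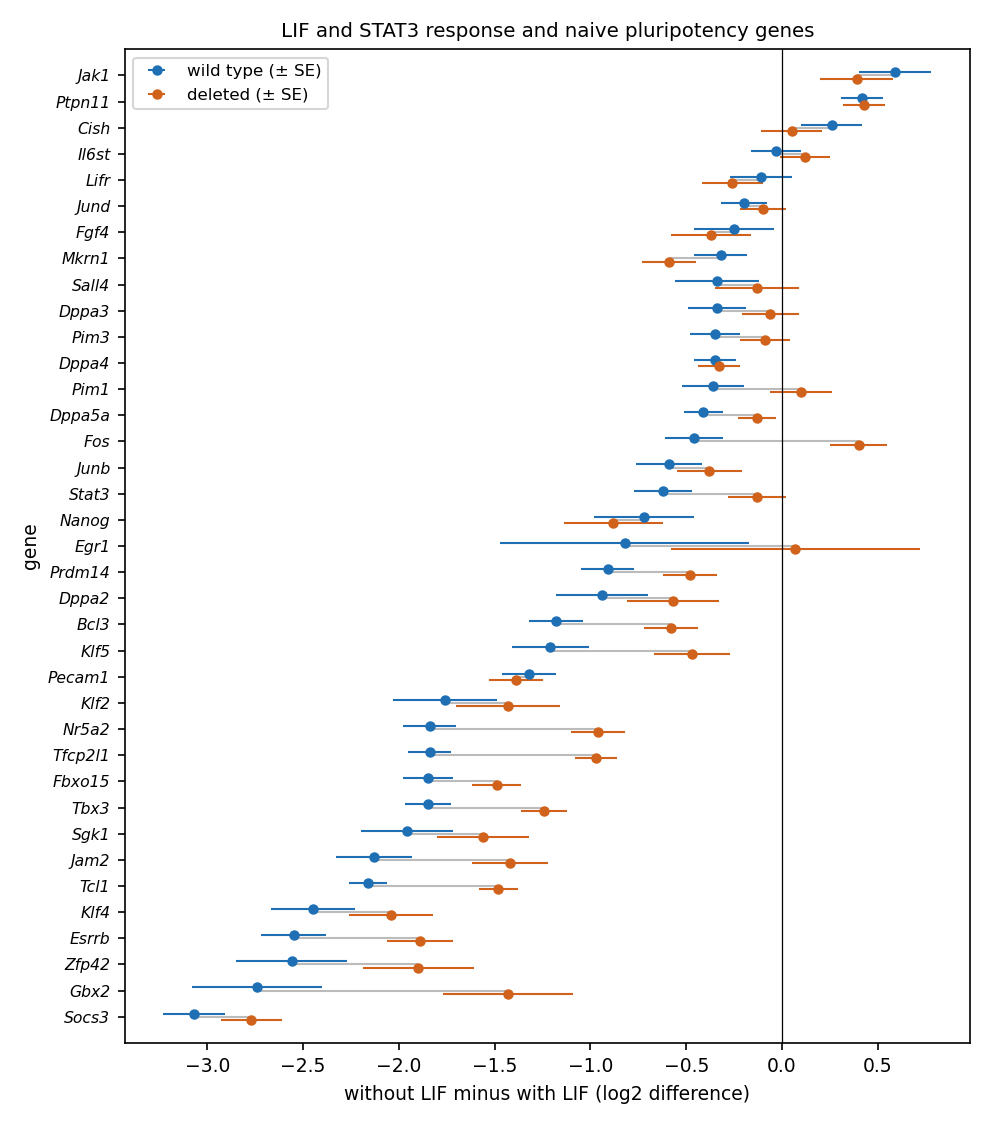
LIF withdrawal response (log2 difference, without LIF minus with LIF, ± SE) of the 37 measured genes of the LIF and STAT3 response and naive pluripotency lists, in wild type (blue) and deleted (orange) cells, ordered by the wild type response. For 30 of 37 genes the deleted point lies to the right of the wild type point (a positive interaction), against 4387 of 9527 for all genes.

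The list of later epiblast genes had a negative median interaction, and again 0 passed in the fit used here. This was not particular to it, since sterol biosynthesis (-0.32) and fibroblast markers (-0.29) had lower medians. Of 14 measured genes of the formative and primed epiblast, 7 rose in wild type cells and 4 in deleted cells, while 2 fell in each. The median interaction was -0.26, with 9 of 14 negative against 5140 of 9527 for all genes, and with 0 positive and 3 negative at an unadjusted p under 0.05. The median moved to -0.06 without deleted array 1 without LIF and to between -0.17 and -0.12 without deleted array 3 with LIF, wild type array 1 with LIF or wild type array 2 or 3 without LIF. It reached -0.38 without wild type array 1 without LIF. Sall2, a zinc finger factor, read 6.98, 6.91 and 6.77 in wild type cells with LIF and 8.20, 8.07 and 8.18 without it. The deleted arrays read 6.70, 6.63 and 6.70 with LIF and 7.17, 6.96 and 7.11 without it. It rose by 1.26 and by 0.40, and the interaction of -0.85 ± 0.14 missed the threshold (limma adjusted p = 0.0508). It passed in 5 of 23 alternative settings.

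Otx2, a homeobox factor of the early epiblast, rose in wild type cells from 8.57, 9.04 and 8.70 to 10.20, 10.44 and 10.26. Deleted cells gave 9.18, 10.20 and 8.83 with LIF and 9.84, 9.96 and 9.40 without it, and did not pass (0.33, adjusted p = 0.503). Its second deleted array with LIF was the highest of the 6 with LIF and overlapped those without it. The interaction of Otx2 was -1.20 ± 0.38 (adjusted p = 0.476). Dnmt3b, a de novo DNA methyltransferase, rose by 1.38 and by 0.76 (interaction -0.62), and the POU factor gene Pou3f1 rose by 1.38 and by 0.98 (interaction -0.40, adjusted p = 0.791). The probe of Fgf5, an epiblast ligand, was not kept.

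Ligands and receptors varied among themselves. Fgf8, a growth factor of the primitive streak, read 6.77, 6.39 and 6.23 in wild type cells with LIF and 7.61, 9.19 and 8.95 without it. Among deleted arrays it was at 6.96, 6.70 and 6.55 with LIF and 7.11, 7.33 and 6.65 without it. It rose by 2.12 in wild type cells and stood at 0.30 in deleted cells, and its interaction of -1.83 ± 0.45 did not pass (adjusted p = 0.246). The first wild type array without LIF, at 7.61, stood well below the other two, and Fgf8 was detected on 1 of 3 wild type arrays with LIF. Fgfr2, a receptor, rose by 1.05 and by 1.3. Of 8 measured FGF ligands, receptors and binding proteins 4 rose in wild type and 2 in deleted cells.

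Of 15 Nodal pathway genes 5 rose and 1 fell in wild type cells, and 2 rose and 2 fell in deleted cells. Foxh1, the nuclear partner of SMAD2 and SMAD3, rose by 0.90 in wild type cells and stood at 0.18 in deleted cells (interaction -0.72, with a second probe at -0.49). Furin, a protease that processes Nodal precursors, rose by 0.69 and stood at 0.31 (interaction -0.39). Smad3 rose by 0.80 in both genotypes. The Nodal list's median interaction was -0.24, with 11 of 15 negative against 5140 of 9527 for all genes. The list's median moved to -0.07 without deleted array 1 without LIF, and to -0.08 and -0.11 without wild type arrays 2 and 3 without LIF.

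Epithelial adhesion genes rose widely in both genotypes, 12 of 15 in wild type cells and 7 of 15 in deleted cells, and 0 fell. Their median responses were 0.66 and 0.68, and the median of the interactions was -0.25. That median moved to -0.09 without deleted array 3 with LIF, to -0.12 without deleted array 1 without LIF and to -0.14 without wild type array 1 with LIF. Of the 10 negative members 4 were tight junction claudin genes, and the 3 with an unadjusted p under 0.05 were claudins. Cldn6 rose by 1.12 and by 0.50 (interaction -0.61), Cldn3 by 1.35 and by 0.88 (-0.47), and Cldn7 by 0.51 against -0.04 (-0.54). Cldn4 rose by 0.93 and by 0.81 (-0.11). Other negative members included the keratin gene Krt18 (-0.33), the plakophilin gene Pkp2 (-0.32) and the cadherin gene Cdh1 (-0.27). Gja1, a gap junction gene, rose by 1.54 and by 1.63.

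**Figure D4:**
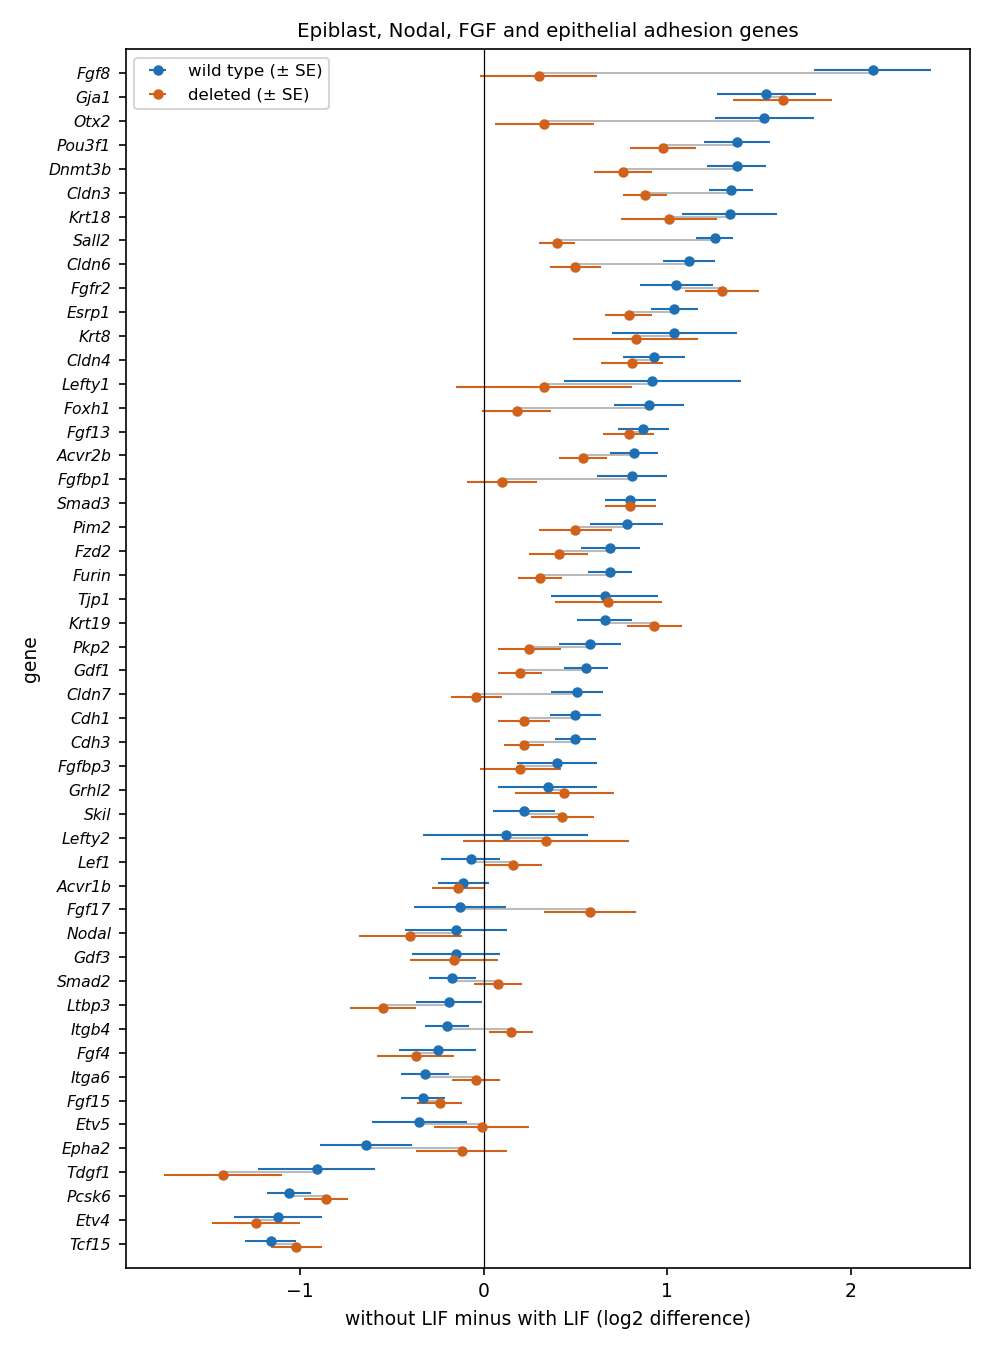
LIF withdrawal response (log2 difference, without LIF minus with LIF, ± SE) of the 50 measured genes of the epiblast, Nodal, FGF and epithelial adhesion lists in wild type (blue) and deleted (orange) cells. In these lists 27 of 50 genes rose in wild type and 14 in deleted cells, against 11.1% and 5.03% of all genes. The widest gaps are those of Fgf8 and Otx2.

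Other lineage and signalling genes with the lowest p-values lay outside these lists. Kif1a, a neuronal kinesin motor gene, rose by 2.69 in wild type cells and by 1.66 in deleted cells. Its arrays with LIF read 8.58, 8.26 and 8.52 in wild type and 9.53, 9.65 and 9.79 in deleted cells. Without LIF they read 11.07, 11.14 and 11.23 against 11.29, 11.50 and 11.17. The deleted cells started higher and reached overlapping values, with an interaction of -1.03 ± 0.17 (limma adjusted p = 0.0508) and a second probe at -0.61. It passed in 5 of 23 alternative settings. Meis2, a homeobox gene of the neuroectoderm list, rose by 1.54 in wild type cells and stood at 0.09 in deleted cells (interaction -1.45, adjusted p = 0.0675), with a second probe at -0.40. With LIF it was detected on 2 of 3 wild type and 1 of 3 deleted arrays.

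Ifitm3, an antiviral membrane protein gene, passed for a rise in deleted cells and not in wild type cells. It read 10.53, 10.71 and 10.79 in wild type cells with LIF and 10.61, 10.62 and 10.77 without it. In deleted cells it read 9.96, 9.61 and 10.00 with LIF and 10.93, 10.94 and 10.58 without it. The low group was therefore the deleted one with LIF, and the groups without LIF overlapped. It rose by 0.96 in deleted cells and gave -0.01 in wild type cells, but the interaction of 0.97 ± 0.19 did not pass (limma adjusted p = 0.127). Gbp2, an interferon-induced GTPase gene, rose by 2.66 in wild type cells and by 3.41 in deleted cells (interaction 0.75, adjusted p = 0.64). Id2, a helix-loop-helix inhibitor, rose by 1.12 in deleted cells and stood at 0.44 in wild type cells (interaction 0.69, second probe 0.35). Of 14 interferon-stimulated genes 7 rose in wild type and 9 in deleted cells, with a median interaction of 0.07.

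Of the remaining genes with the smallest p-values, Trip12, a ubiquitin ligase gene, fell by 0.88 in wild type cells and stood at -0.20 in deleted cells (interaction 0.68, adjusted p = 0.127). Its further probes gave 0.78, 0.38 and 0.34. Accsl fell by 1.37 in wild type cells and stood at -0.26 in deleted cells (interaction 1.10, adjusted p = 0.12), with a second probe at 0.26. The deleted arrays with LIF, at 6.59 to 6.80, already lay near the detection floor. Cda, a cytidine deaminase gene, was not well above background on any of the 3 wild type arrays with LIF, and all other groups lay between 6.72 and 6.84. A log2 difference against that group is not an estimate, so no interaction is given for Cda.

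Metabolic and stress lists also held no gene past the interaction test. Of 17 metallothionein and redox genes 8 fell and 1 rose in wild type cells, against 3 and 1 in deleted cells, and 15 of 17 interactions were positive (median 0.15). Sod2, the mitochondrial superoxide dismutase gene, fell by 1.12 and by 0.48 (interaction 0.64, adjusted p = 0.159). The metal-binding Mt2 fell by 0.92 in wild type cells and stood at -0.23 in deleted cells, and Mt1 by 0.57 against -0.10, although close paralogs on an array may share signal. Of 11 sterol biosynthesis genes 2 rose in wild type and 0 in deleted cells, and 10 of 11 interactions were negative (median -0.32). Without deleted array 3 without LIF that median was -0.18 and without wild type array 1 without LIF it was -0.21, and the count of negative values at an unadjusted p under 0.05 ran from 0 to 5 against 1 with all arrays. Fdps, farnesyl diphosphate synthase, rose by 0.57 in wild type cells and stood at -0.13 in deleted cells, while its second probe had an interaction of -0.24.

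Of 24 genes of the HDAC1/2 complexes 5 rose and 2 fell in wild type cells, against 0 and 0 in deleted cells. Over all genes 11.1% rose and 10% fell in wild type cells, against 5.03% and 5.75% in deleted cells. None of the 24 passed the interaction, so a difference between the genotypes is not shown. Arid4a, a subunit of the Sin3 complex, fell by 0.60 in wild type cells and stood at 0.01 in deleted cells (interaction 0.62, adjusted p = 0.309), and its second probe gave 0.04. Of 13 REST target neuronal genes 5 fell in deleted cells and 2 in wild type cells, with a median interaction of -0.17. Among 8 measured genes that HDAC inhibitors often induce, wild type cells had 3 rises and 3 falls and deleted cells 1 rise.

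In several further lists no gene passed the interaction, as in those above. Of 20 actin cytoskeleton and muscle genes 11 rose and 2 fell in each genotype, and the median interaction was -0.01. Of 15 imprinted genes 9 rose in wild type and 8 in deleted cells (0.03). Of 16 primitive and visceral endoderm genes 7 rose and 1 fell in wild type cells and 6 and 1 in deleted cells (0.03). Of 12 antigen presentation genes 7 rose in each genotype. Their median of -0.22, with 9 of 12 negative, was close to that of the Nodal list (-0.24, 11 of 15). The lists of DNA replication (27 genes), G2/M and mitosis (16), hypoxia and glycolysis (20), integrated stress response (19) and Wnt targets (15) had medians of 0.00, 0.07, -0.08, 0.00 and -0.04.

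**Figure D5:**
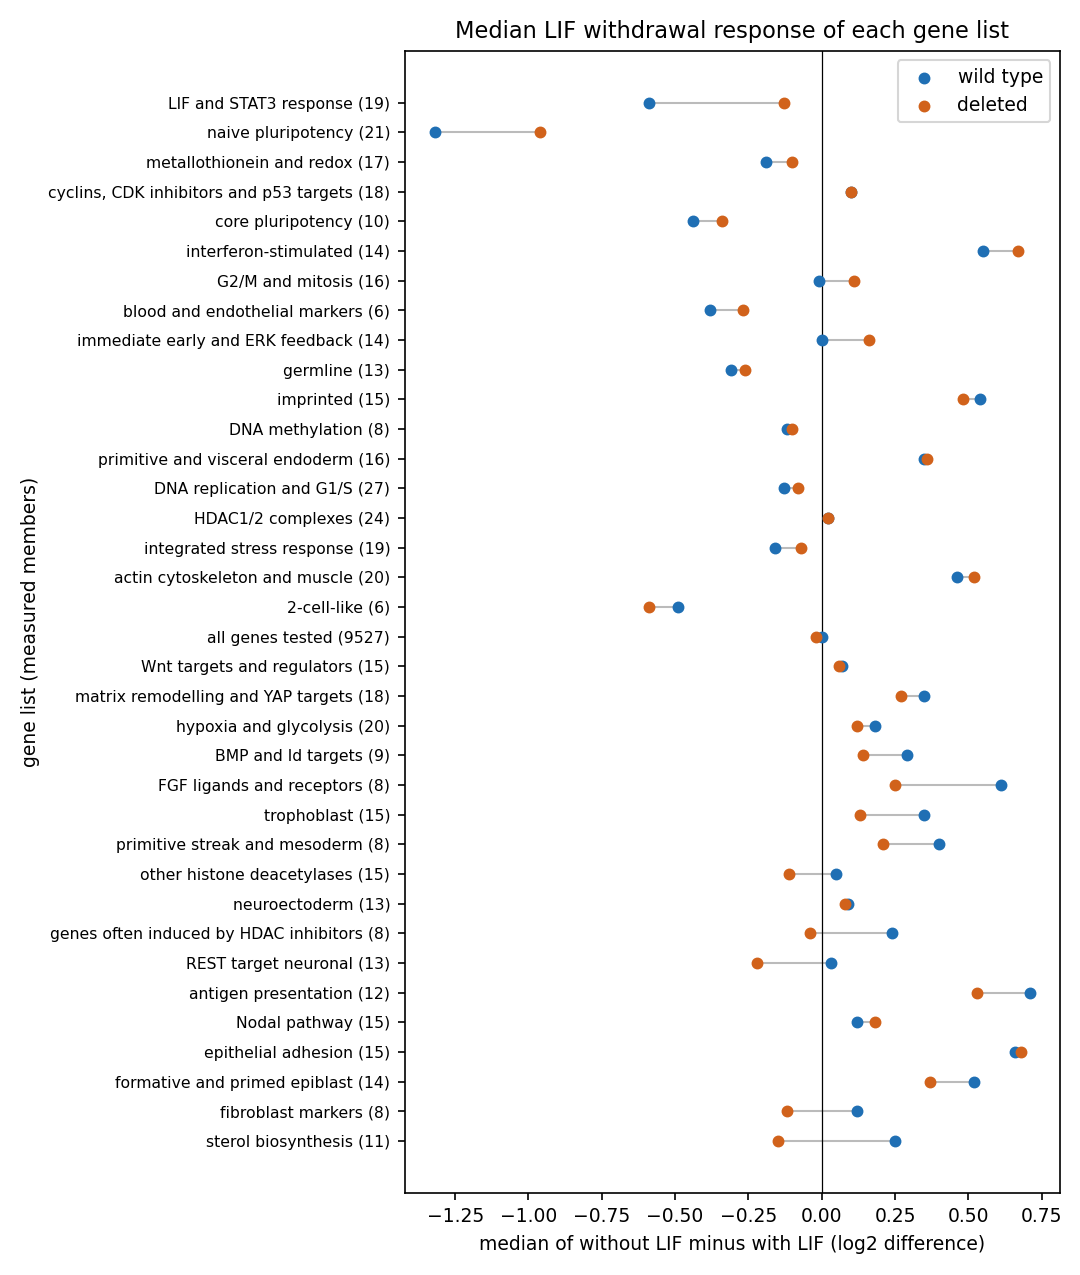
Median LIF withdrawal response (log2 difference) of each gene list in wild type (blue) and deleted (orange) cells, with the number of measured genes in brackets, ordered by the median interaction. The LIF and STAT3 list is at the top (median interaction 0.39) and the sterol biosynthesis list at the bottom (-0.32).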

How the data were processed

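Biotinylated cRNA from 12 samples was hybridised to Illumina mouse bead arrays of 45281 probes, and GenomeStudio is named, without settings, per the submitters' processing notes. The sample-keyed table held intensity values on a linear scale that the authors had processed, with 1 shared minimum (86.5) and maximum (35095), and their normalization method is not given in the sources used here. The non-normalized table held the bead intensity averaged per probe and its detection p-value, per the file headers. Its columns were tied to samples by rank order (Spearman's rho of 1 with the match, at most 0.836 with any other column), which contradicts their names on culture.

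From the deposited intensity values, normexp (offset 50), log2 and quantile normalization were computed in R 4.3.3 with limma 3.58.1. Kept probes (15999) had a detection p under 0.05 on each of the 3 arrays of some group, and each gene took its kept probe of highest mean (9527 genes). Gene symbols came from the platform annotation. limma (lmFit, eBayes) fitted 4 group means with 8 residual degrees of freedom. Tests were two-sided, with Benjamini-Hochberg adjustment over all 9527 genes at 0.05, and errors are moderated SEs. Precision is limited by the number of arrays. The fit was tested on simulated data.

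Named genes were those past the interaction test, the 6 smallest p-values in each direction where fewer passed, and the label checks Hdac1, Hdac2, Socs3, Klf4, Esrrb, Nanog, Pou5f1, Sox2, Fgf5 and Otx2. Other list members were named after their values were seen. The comparison, its members and the gene lists were chosen with earlier results of these data known. Lists are given as counts and medians with no set test. Alternatives covered background correction, scaling, probe filter, probe choice, replicate block, variance trend, array weights, threshold and each array left out. A further pair was added after the data were seen: omission of the 4 arrays numbered 1, and a fit of all kept probes.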

Additional observations from a re-analysis of the deposited data

Results flagged for a closer look

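Each of the 5 genes past the interaction test had a LIF response that differed between the genotypes by that test. Laptm5 stood out with 1.94 (a fall in wild type cells, not called in deleted cells) and Car14 with -1.44 (a rise in wild type cells, not called in deleted cells). Tgm1 gave 1.46 and Npw -1.05, both with called responses of opposite sign, and Ccn2 gave -1.41, a smaller rise in deleted cells. Groups of 3 arrays are too small for a test of outlying arrays.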

How the results depend on the processing

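Of 9527 genes 5 passed the interaction, 2010 the wild type response and 1027 the deleted response. Without normexp 8 passed the interaction, and with median scaling of the non-normalized intensities 1, 717 and 362. With the replicate number as a block the counts were 13, 3021 and 1849, with array weights 87, 3275 and 1842, and at an adjusted p under 0.01 2, 1043 and 461. Without each array in turn the interaction count was 2 to 9, the wild type count 1350 to 2228 and the deleted count 568 to 1137. Omitting the 4 arrays numbered 1 gave 15 interaction genes, and testing all 15999 kept probes gave 3, both added after the data were seen. The 5 genes were among those called without normexp, under the block and with array weights. The labels name no pairing by replicate number, and the fit used here left that number out. Whether same-numbered arrays belong together was not tested. Correlations of same-numbered deviations were 0.45 to 0.68 for number 1, -0.04 to 0.51 for number 2 and 0.18 to 0.38 for number 3. Of the 12 arrays 9 correlated best on average with their own number and 10 had their closest array under it, a hint from the data and not the design. An exaggerated gene passed in 2 of 23 settings and a blunted one in 23. The interaction of Sox2 (0.19) ran from -0.04 (without wild type array 2 with LIF) to 0.36 when 1 array was left out, that of Nanog (-0.16) from -0.41 to 0.23 (without deleted array 1 without LIF), and neither passed in any setting run. The causes of these shifts were not tested.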

Other observations

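A probe with no gene symbol in the annotation, ILMN_2954474, passed the interaction when all 15999 kept probes were tested (-1.76 ± 0.25, limma adjusted p = 0.0273). It read 6.34, 6.54 and 6.85 in wild type cells with LIF and 9.10, 9.47 and 9.29 without it. In deleted cells it read 6.54, 6.31 and 6.2 with LIF and 7.58, 7.39 and 6.93 without it. The response was 2.71 in wild type cells and 0.95 in deleted cells, and the probe was detected on 2 and 1 of 3 arrays with LIF.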
